A study of Bos taurus with 2 samples.

Results

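Cluster 13 was 1 of the 15 groups into which the authors' graph-based clustering divided cultured bovine satellite cells, and it held 602 of the 19096 cells. The cells came from the skeletal muscle of 1 male Holstein calf aged 2 weeks and had been cultured for 1 week in growth medium of DMEM and fetal bovine serum, with no treatment, no second genotype and no control group. From these cells 2 single-cell RNA sequencing libraries were made, which are called replicates 1 and 2. The method catches each RNA molecule at its 3′ end and adds a barcode of its cell and an identifier of the molecule (UMI, unique molecular identifier), and the UMIs are counted. The libraries held 145631299 UMIs in replicate 1 and 137818568 UMIs in replicate 2. Their spread reflects how the libraries were made and sequenced, and says nothing of the spread between animals. The members of cluster 13 were found from the deposited cluster averages. Each average was turned back into a whole number of UMIs per gene and cluster, and only 1 assignment of the 19096 cells gave those sums. Over 252240 pairs of gene and cluster, 0 sums differed from the deposited ones.

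Satellite cells are the stem cells of skeletal muscle. They lie between the muscle fiber and its basement membrane, enter the cell cycle when activated, and as myoblasts express MYF5 and MYOD1 before they differentiate and fuse into fibers. IGF2, insulin-like growth factor 2, is a secreted growth factor from an imprinted locus that myogenic cells make themselves. RPS26 is a protein of the small ribosomal subunit. LPCAT1 is an enzyme that adds acyl chains to lysophosphatidylcholine, and NOTCH3 is a receptor of the Notch pathway that is abundant in mural cells of blood vessels. These 4 genes are the marker genes given for cluster 13.

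The clusters were drawn by the authors on the same UMI counts that are described here. The differences between clusters given below are therefore descriptions, with no independent test that the cluster exists. A gene is called higher or lower where edgeR's quasi-likelihood test, on the summed UMIs of the 2 libraries on each side, gave a Benjamini-Hochberg adjusted p under 0.05. Such a call says that a difference was larger than the spread between the 2 library preparations. Levels are UMIs per 10000 UMIs of the same cells, and errors are SD over the 2 libraries or the standard error (SE) of the fitted log2 fold change.

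The cells of cluster 13 were shallow. Cluster 13 took 348 of 9939 cells in replicate 1 (3.5%, exact 95% binomial interval 3.15 to 3.88%, counting error only) and 254 of 9157 cells in replicate 2 (2.77%, 2.45 to 3.13%). It gave 0.394% of the UMIs of replicate 1 and 0.306% of those of replicate 2, or 994870 UMIs in all. The median cell had 1607 UMIs in replicate 1, with a range from 553 to 3161, and 1647 UMIs in replicate 2, with a range from 577 to 3323. Only cluster 15, with a median of 647 UMIs, and cluster 7, with 1389, were shallower. Cluster 14 had a median of 2513.5 UMIs and cluster 10 of 5398.5, while the other 10 clusters lay between 12929 and 23011. The median cell of cluster 13 had 872 genes with a UMI. After each cell was thinned to 1000 UMIs, with the 92 cells of cluster 13 below that depth left out, the median was 601 genes, against 604 to 687.5 in the other 14 clusters. The 2 libraries had 27 cell barcodes in common, of which 1 belonged to a cell of cluster 13. The program Scrublet gave each cell a doublet score, and the 8% of cells with the highest scores per library were called doublets. That share was a setting and not a measured doublet rate, and the automatic threshold marked 1 cell of the whole series. Those called included 1 cell of cluster 13 (0.166%), against 7.32% of all cells, and no cell was removed.

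**Figure D1:**
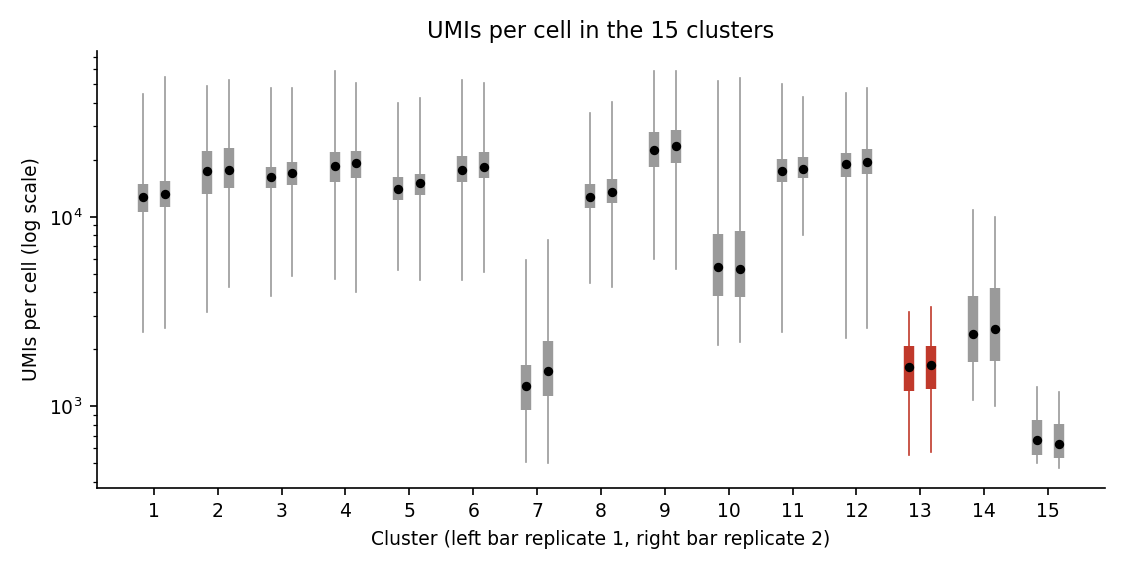
UMIs per cell (log scale) in each of the 15 clusters, with replicate 1 on the left and replicate 2 on the right of each pair. Points are medians, thick bars the range between the quartiles and thin lines the range. Cluster 13 (red) has medians of 1607 and 1647 UMIs and no cell above 3323 UMIs.

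IGF2 and RPS26 were higher in cluster 13 than in any other cluster, and LPCAT1 and NOTCH3 were higher in cluster 7. The IGF2 level in cluster 13 was 27.2 in replicate 1 and 27.8 in replicate 2, against 8.41 and 10.8 in all other cells, which is a log2 fold change of 1.41 ± 0.115 (SE). Cluster 12, the next in order, had 20.7 and 25.8, cluster 10 had 15.6 and 18.7, and the lowest mean was 1.78 in cluster 9. Both libraries of cluster 13 were above both libraries of cluster 12, but the means of 27.5 and 23.2 differed by little more than the SD of 3.60 in cluster 12. RPS26 was at 40.7 and 40.8 in cluster 13, against 14.5 and 14.2 in all other cells (log2 fold change 1.40 ± 0.0539). In the order of RPS26, cluster 10 followed with a mean of 21.2 and cluster 15 with 20.9, so cluster 13 stood apart from the rest by far more than the spread between libraries. LPCAT1 was at 1.43 and 1.35, against 0.451 and 0.464 in all other cells (1.5 ± 0.0992). Its mean was 1.75 in cluster 7 and 1.1 in cluster 10. NOTCH3 was at 0.803 and 0.782, against 0.354 and 0.374 in all other cells (1.02 ± 0.124), and rested on 79 UMIs. Cluster 7 had a NOTCH3 mean of 1.69 and cluster 8 a mean of 0.637. The name IGF2-high describes these same counts, so the first place of cluster 13 in IGF2 adds no separate test of it. LPCAT1 and NOTCH3 did not mark cluster 13 apart from cluster 7.

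**Figure D2:**
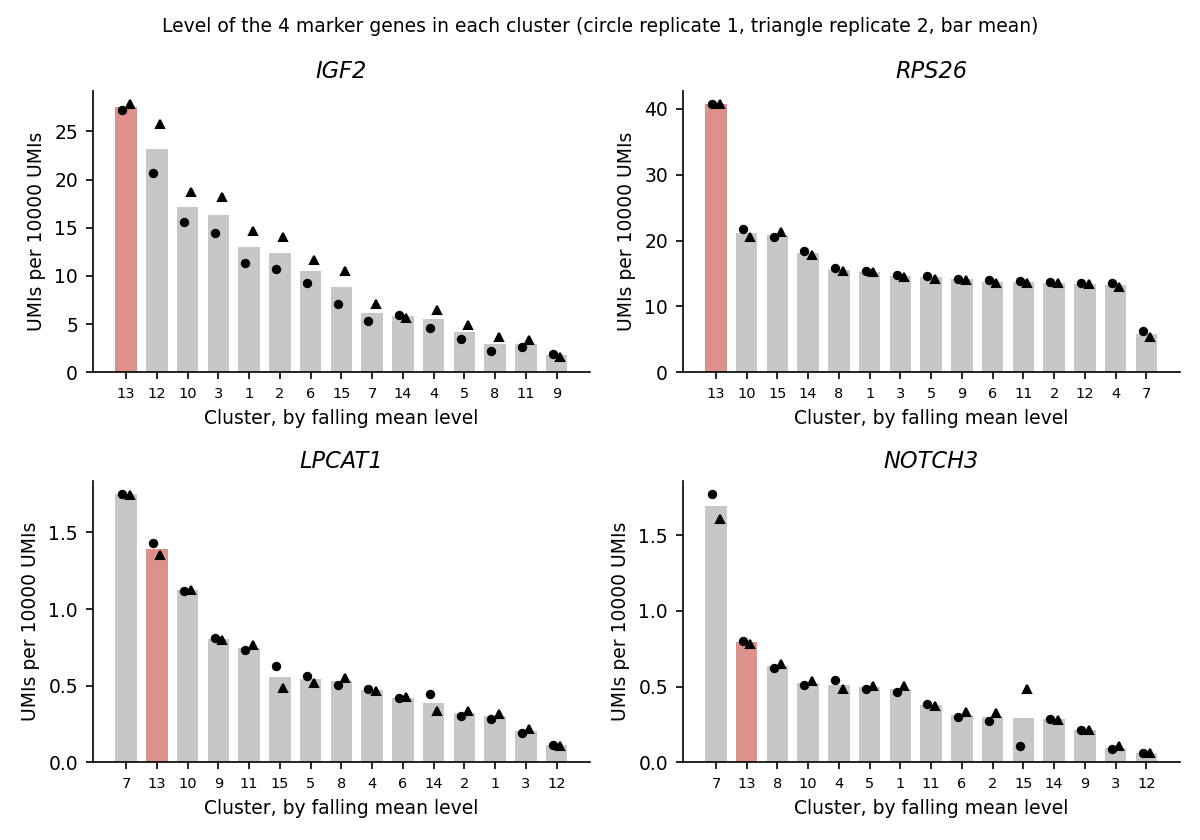
Levels of IGF2, RPS26, LPCAT1 and NOTCH3 (UMIs per 10000 UMIs) in the 15 clusters, ordered by their mean; bars are means of the 2 libraries, circles replicate 1 and triangles replicate 2. Cluster 13 (red) is first for IGF2 (mean 27.5) and RPS26 (mean 40.7) and second to cluster 7 for LPCAT1 and NOTCH3.

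The 2 leading genes were spread over the cells in different ways. RPS26 was counted in all but 2 of the 602 cells, with a median of 6 UMIs and a maximum of 20 UMIs, and the 60 cells with the most RPS26 held 20.5% of its UMIs. IGF2 had no UMI in 217 of the 602 cells, a median of 2 UMIs and a maximum of 67 UMIs, and the 60 cells with the most IGF2 held 47.3% of its UMIs. In replicate 1 the top 35 cells held 44.7% of the IGF2 UMIs, and in replicate 2 the top 25 cells held 50.8%. With cells thinned to 1000 UMIs, IGF2 was detected in 57.6% of the cells of cluster 13 (64.0% before thinning), 52.9% of cluster 10 (74.9%), 67.3% of cluster 12 (91.9%) and 10.2% of cluster 9 (59.5%), the cluster with the lowest IGF2 level. The median cell had 1 IGF2 UMI after thinning in clusters 13 and 10, and 2 in cluster 12. Cluster 13 was therefore first in its summed IGF2 level and not in the share of cells in which IGF2 was detected. RPS26 was detected in 98.4% of the thinned cells of cluster 13 (99.7% before thinning), against 90.9% in cluster 10 (100%) and 75.2% in cluster 9 (100%).

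Against all other cells, 12853 genes were tested, of which 769 (5.98%) were called higher and 1449 (11.3%) lower in cluster 13 (17.3% in either direction). The differences of at least 2-fold were mostly lower: 734 genes against 148 higher. The balance moved with the scaling. Without TMM normalization the counts were 1108 higher and 1218 lower, and DESeq2 called 1381 higher and 1324 lower. The median log2 fold change over all genes tested was -0.144 with TMM and -0.036 without it, so that a shift of about 0.1 on the log2 scale belongs to the scaling. The 15 genes with the largest increases among those at 1 UMI per 10000 or more in cluster 13 were LPCAT1, IGF2, RPS26, TSPAN9, CRKL, ELN, ARHGAP35, KIF1C, STT3B, C23H6orf62, AES, DZIP1, UBE2Q1, SPATS2L and IRAK1. TSPAN9, a tetraspanin of the cell membrane, was at 1.38 and 1.38 against 0.505 and 0.524 in all other cells. CRKL, an adaptor in growth factor and integrin signaling, was at 0.977 and 1.19 against 0.423 and 0.436. SPATS2L was the most abundant of the remaining genes, at 5.08 and 4.93 against 2.39 and 2.43. In these 3 genes both libraries of cluster 13 were above both libraries of all other cells. These genes were picked as called genes with large increases, so this order adds no separate test.

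In the insulin-like growth factor system, IGF2 and IGF2R were called higher and IGFBP5 and IGFBP6 lower. Of 22 genes on the list, 17 were tested, 2 were called higher and 2 lower, beside 5.98% and 11.3% of all genes tested, so that the number lower was near the background. The median log2 fold change was 0.42. IGF2R, the receptor that takes up IGF2 for degradation, was at 2.15 and 1.71 in cluster 13 against 1.26 and 1.30 in all other cells (0.50 ± 0.108). This call was lost with equal weights for the 14 other clusters (log2 fold change 0.23). IGFBP5, a binding protein made by myoblasts, was at 0.454 and 0.403 against 0.918 and 0.917 (-1.20 ± 0.130). IGFBP6, which prefers IGF2, was at 1.88 and 1.64 against 3.46 and 3.52 (-1.08 ± 0.0871). The signaling receptor IGF1R had 7 UMIs in cluster 13 and the ligand IGF1 had 0 UMIs, where 3 UMIs of the cluster's total would be a level of 0.0302. The summed level of the list was 36.0 and 37.2, the highest of the 15 clusters, and most of it was IGF2.

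IGF2 is one of the genes expressed from only 1 parental copy, and others of this imprinted group were also higher than in all other cells. Of 19 imprinted genes tested, 7 were called higher and 0 lower, beside 5.98% and 11.3% of all genes tested. The counts were the same in the other fits, except that 6 were called higher with the other clusters weighted equally, where IGF2R was not called. Among members with more than 3 UMIs in cluster 13, NDN (log2 fold change -0.63) and SGCE (-0.61) were the lowest and were not called. PEG10, a retrotransposon-derived gene, was at 1.64 and 1.66 against 0.844 and 0.823 in all other cells (0.88 ± 0.0907). NNAT was at 0.750 and 0.782 against 0.420 and 0.449, and GRB10, an adaptor that binds the insulin and IGF1 receptors, was at 1.62 and 2.06 against 1.04 and 1.05. SNRPN, IGF2R and MEST were the other members called higher. The summed level of the list was 45.2 and 46.1, against a mean of 68.2 in cluster 12 and 33.1 in cluster 10. IGF2 alone had means of 27.5 in cluster 13, 23.2 in cluster 12 and 17.2 in cluster 10. Against cluster 10, 17 imprinted genes were tested and only IGF2 was called higher, with 0 lower, beside 0.0676% higher among all genes tested. CDKN1C, an inhibitor of cyclin-dependent kinases in the same chromosomal domain as IGF2, was at a mean of 6.89 in cluster 13 and 7.20 in all other cells and was not called.

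Of 33 genes of the Notch pathway tested, NOTCH3, HEYL and DTX4 were called higher and PSENEN and NUMB lower, which is near the background of 17.3% called in either direction. DESeq2 and the fit without TMM each called 5 higher and 2 lower. HEYL, a transcription factor induced by Notch signaling, was at 0.733 and 0.616 against 0.305 and 0.317 (1.03 ± 0.140). DTX4, a ubiquitin ligase of the pathway, was at 0.332 and 0.285 against 0.12 and 0.115 (1.30 ± 0.208) and rested on 31 UMIs. PSENEN, a subunit of the gamma-secretase that releases the Notch intracellular domain, was lower by 0.72 on the log2 scale. NUMB, an inhibitor of the pathway, had 0 UMIs in cluster 13 and 0.0521 and 0.0528 in all other cells, and its call rests on that zero. Among 35 tested enzymes of phospholipid synthesis and remodeling, LPCAT1, LPCAT4 and PTDSS1 were called higher and PCYT2 lower, which is below that background. PTDSS1, which makes phosphatidylserine, was at 1.06 and 0.925 against 0.447 and 0.479.

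Of 27 matrix glycoproteins and proteoglycans, 7 were called higher and 3 lower, beside 5.98% higher and 11.3% lower among all genes tested, so that the number lower was near the background. ELN, the elastin of elastic fibers, was at 1.15 and 1.09 against 0.446 and 0.483 (1.17 ± 0.116). THBS1, thrombospondin 1, was at 9.44 and 9.56 against 5.19 and 5.10 (0.77 ± 0.0575). MMP14, NID1, LAMC1, TNC and SPARC were the other members called higher, and TNC had a log2 fold change of 0.43 that turned to -0.011 with the other clusters weighted equally. DCN, LUM and LOX were lower, by 0.60, 0.41 and 0.59 on the log2 scale, and the LOX call was lost without TMM. Of 19 collagens, COL5A1 and COL14A1 were called higher and COL6A1 and COL4A1 lower, with the number lower again near the background, and the COL4A1 call was lost without TMM, with DESeq2 and in cells from 1000 UMIs. The abundant COL1A2 was at 53.1 and 52.9 against 48.3 and 50.9, and was called lower, by 0.25 on the log2 scale, only with the other clusters weighted equally, and COL1A1 was not called. COL3A1 was not called either (log2 fold change 0.0637). It was called higher with DESeq2 (0.125) and without TMM (0.173), and lower with the other clusters weighted equally (-0.193).

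Transcripts of ribosomal proteins made up a larger share of the UMIs in cluster 13 than in any other cluster. The 49 large-subunit genes summed to 1619 and 1604 UMIs per 10000, against 1408 and 1392 in all other cells, and the 35 small-subunit genes to 1507 and 1534, against 1218 and 1221. Cluster 10 was next, with means of 1584 and 1464. The single genes did not move as one. Of 44 large-subunit genes tested, 9 were called higher and 6 lower, and of 35 small-subunit genes, 8 were called higher and 4 lower, beside 5.98% and 11.3% of all genes tested. These counts moved with the fit. Without TMM they were 15 higher and 4 lower for the large subunit and 20 and 2 for the small one. Blocked on the library they were 17 and 12 for the large subunit and 20 and 8 for the small one, and DESeq2 gave 18 and 7 and then 20 and 6. Equal weights for the other clusters gave 17 and 3 and then 22 and 2. RPS26 had the largest change, followed by RPLP1, at 112 and 107 against 58.8 and 57.4 (0.81 ± 0.0575), RPS28, RPS29 and RPS12. RPS12 was the most abundant transcript of the cluster, at 162 and 163 against 102 and 98.5. RPS16, RPL26, RPL21 and RPL3 were lower, by 0.41 to 0.49 on the log2 scale. Ribosomal protein genes have many near-identical copies in the genome, and only uniquely mapped reads were counted, so that their levels are uncertain where a copy takes reads.

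**Figure D3:**
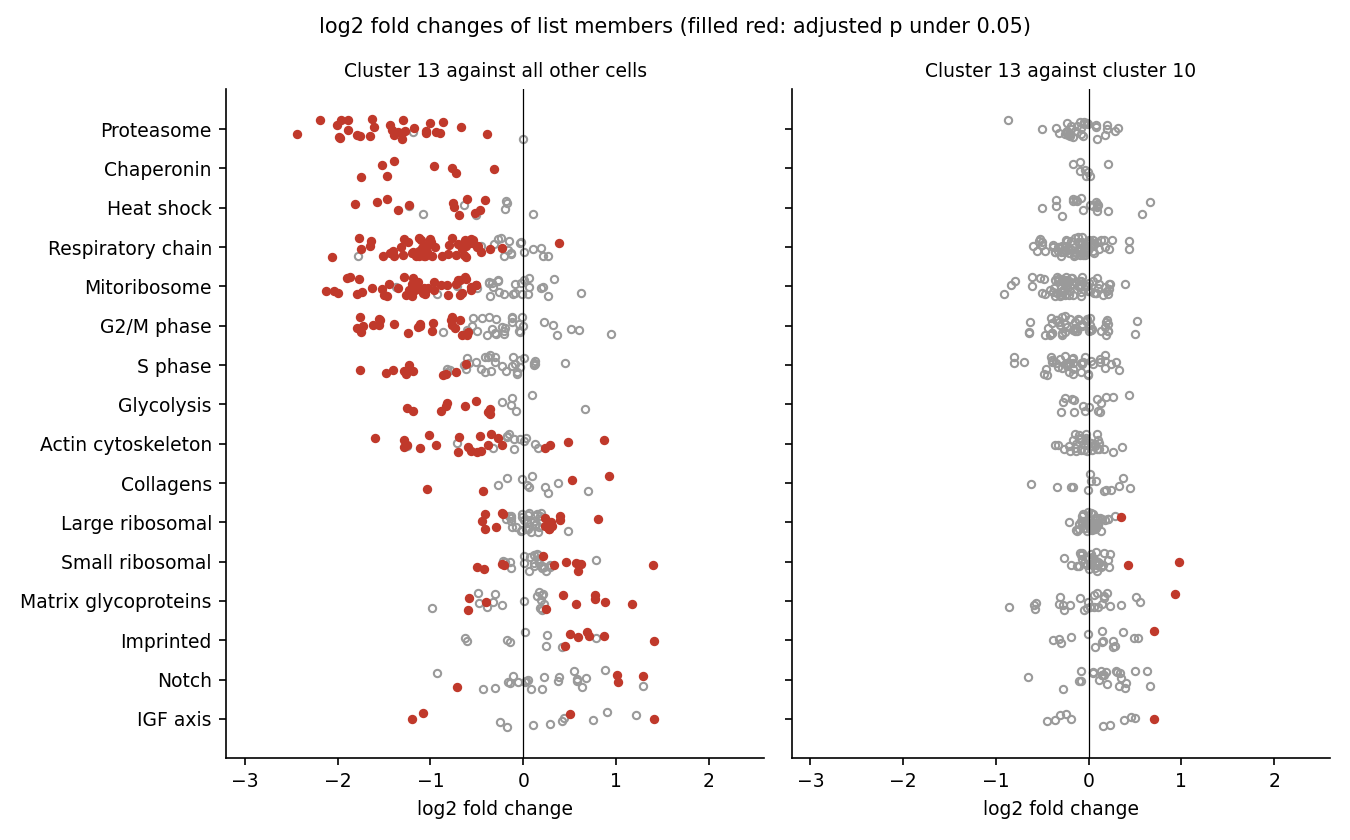
log2 fold changes of single genes in 16 gene lists, in cluster 13 against all other cells (left) and against cluster 10 (right). Filled red points are genes with an adjusted p under 0.05, open grey points the other genes tested, and genes with 3 or fewer UMIs in cluster 13 are left out. On the left, 30 of 32 proteasome genes are called lower and 0 higher, and 7 of 19 imprinted genes are called higher; on the right, 0 genes of the proteasome, chaperonin and respiratory chain lists are called.

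The genes with the largest decreases were led by TXN, subunits of the proteasome, LMNA and UBB. Among genes at 1 UMI per 10000 or more in the other cells, the 15 with the most negative log2 fold change were TXN, PSMB7, LMNA, PSMB6, UBB, EBNA1BP2, SNRPC, BUD23, LGALS1, ENSBTAG00000012184, MRPS14, DNAJC7, PHB, PSMC4 and YJEFN3. TXN, thioredoxin, was at 2.16 and 2.37 in cluster 13 against 12.2 and 11.5 in all other cells (-2.50 ± 0.0833). UBB, a polyubiquitin gene, was at 2.58 and 2.42 against 10.5 and 10.3 (-2.16 ± 0.0737). LGALS1, galectin 1, which myoblasts secrete, was at 3.72 and 2.89 against 13.4 and 13.01 (-2.09 ± 0.103). LMNA, the A-type lamin of the nuclear envelope, was at 0.768 and 1.21 against 3.22 and 5.12. Its wide spread between libraries had the same direction on both sides, with replicate 2 the higher in each of the 15 clusters. In all 4 genes the libraries of cluster 13 lay below those of the other cells. The 4 were picked from the most negative called genes, so this order adds no separate test. After thinning to 1000 UMIs, TXN was detected in 20.2% of the cells of cluster 13 (30.4% before thinning), in 26.5% of cluster 10 (76.4%) and in 75.6% of cluster 14 (92.4%).

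The proteasome, the complex that degrades ubiquitin-tagged proteins, had 30 of its 32 genes called lower. Together the genes summed to 40.9 and 41.1 UMIs per 10000, against 90.01 and 88.04 in all other cells, and cluster 13 had the lowest sum of the 15 clusters. None was called higher, beside 11.3% lower and 5.98% higher among all genes tested, and the median log2 fold change was -1.37 beside -0.144 over all genes. The proteasome, chaperonin and mitochondrial ribosome lists were chosen after their values had been seen, and so carry no support of their own. PSMB6, a catalytic subunit of the core particle, was at 0.663 and 0.616 against 2.75 and 2.68, and PSMB7, another, was at 0.646 and 0.213 against 2.32 and 2.3. PSMC4, an ATPase of the regulatory particle, was at 0.436 and 0.237 against 1.34 and 1.29. The members not called were PSMD3, at a mean of 1.40 in cluster 13 and 1.30 in all other cells, and ADRM1, at 0.185 and 0.383, which was called lower with the library as a block (adjusted p = 0.00185 in edgeR). The chaperonin, which folds actin and tubulin, had all 8 subunits called lower, from -0.31 for CCT4 to -1.75 for CCT8. Without TMM 7 of the 8 were called. Its sum was 15.9 and 17.3, against 32.8 and 31.95 in all other cells.

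Other genes of protein folding and of energy supply were lower as well, beside 11.3% lower and 5.98% higher among all genes tested. Of 21 heat shock genes, 12 were called lower and 0 higher, with the sum at 90.1 and 85.4 against 143 and 139. HSP90AA1, a cytosolic chaperone, was at 13.1 and 13.2 against 37.3 and 35.5 (-1.57 ± 0.0620), and CRYAB, a small heat shock protein of muscle, was at 0.942 and 1.16 against 3.43 and 3.32. Of 71 nuclear genes of the respiratory chain and ATP synthase, 51 were called lower and 1, ATP5F1E, higher (3 without TMM or with DESeq2), with the sum at 161 and 171 against 239 and 241. NDUFA9, a subunit of complex I, was at 0.244 and 0.142 against 0.783 and 0.771, and COX7B, of complex IV, was at 1.27 and 1.04 against 3.58 and 3.26. Of 74 genes of the mitochondrial ribosome, 45 were called lower and 0 higher. Of 18 glycolytic genes, 10 were called lower and 0 higher, among them ALDOA, at 3.47 and 3.72 against 7.97 and 7.92, and ENO1, at 10.5 and 10.8 against 22.2 and 22.5. The mitochondrially encoded transcripts and 8 nuclear long noncoding RNAs on the lists were not matched by name in the feature list, and their share was not analysed here.

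Genes of the cell cycle and the cytoskeleton had more members called lower than higher, beside 11.3% and 5.98% of all genes tested. Of 43 S phase genes, 11 were called lower and 0 higher, and of 54 G2/M genes, 23 were called lower and 0 higher. In G2/M, DESeq2 and the fit without TMM each called 2 genes higher, and the fit blocked on the library called 3 higher and 26 lower. PCNA, the sliding clamp of DNA replication, was at 0.803 and 0.948 against 2.25 and 2.22, and CKS2, which binds cyclin-dependent kinases, was at 0.715 and 0.806 against 2.37 and 2.38. The G2/M sum was 56.2 and 48.9 in cluster 13, below the 70.8 and 69.2 of all other cells and above clusters 8, 1, 12, 3 and 5, whose means ran from 14.9 to 32.9. Of 35 genes of the actin, tubulin and intermediate filament cytoskeleton, 18 were called lower and 4 higher. MYL6, a light chain of nonmuscle myosin, was at 6.46 and 5.79 against 17.1 and 17.3 (-1.59 ± 0.0701), and TUBA1B, an alpha tubulin, was at 11.4 and 9.96 against 24.99 and 23.5. ZYX, zyxin of the focal adhesions, was higher by 0.48 on the log2 scale, and TMSB10 and FLNA were also called higher, a call that FLNA lost with the other clusters weighted equally.

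The other lists are read beside the 11.3% lower and 5.98% higher among all genes tested. Translation factors had 16 of 36 genes called lower and 3 higher, and splicing factors and RNA-binding proteins 16 of 29 lower and 3 higher. EIF4A1, an RNA helicase of translation initiation, was at 5.65 and 6.47 against 13.5 and 13.2, while PABPC1, the cytoplasmic poly(A)-binding protein, was higher by 0.58 on the log2 scale. SRSF7, a splicing factor, was at 1.06 and 0.925 against 3.01 and 2.98. Cholesterol synthesis had 8 of 22 genes lower and 2 higher (6 and 4 in DESeq2), with FDPS at 0.506 and 0.569 against 1.87 and 1.87 and the regulator SREBF2 higher by 0.68. Targets of ATF4 had 4 of 19 lower and 2 higher (4 and 5 in DESeq2), led by PHGDH, the first enzyme of serine synthesis, at 1.57 and 1.47 against 4.56 and 4.71. SLC7A5, an amino acid transporter, was at 0.942 and 0.806 against 0.461 and 0.449, whereas its partner SLC3A2 was lower by 1.41. Immediate early genes had 2 of 24 higher, EGR1 and CTGF, and 2 lower, JUN and JUNB, which is near the background, and the split was 4 higher and 1 lower in DESeq2 and without TMM. Of 25 genes of p53 response and apoptosis, CYCS, cytochrome c, was lower by 1.49 and MCL1 higher by 0.46.

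UMIs of myogenic marker genes were counted in cluster 13. Whether a part of them came from RNA outside the cells was not tested. MYOD1 was at 7.0 and 6.5, against 4.16 and 3.92 in all other cells (0.63 ± 0.0734), with a mean of 6.75 (SD 0.354) that did not differ beyond its spread from the 6.72 of cluster 2. Cluster 3 followed with 6.35 (SD 0.244), below cluster 13 by little more than the SD. MYOD1 was detected in 40.4% of the thinned cells of cluster 13 (53% before thinning), against 39.7% in cluster 10 (78.4%) and 3.70% in cluster 9 (38.1%), the cluster with the lowest MYOD1 level. The share of thinned cells was higher in cluster 3 (47.2%), cluster 2 (45.9%) and cluster 6 (41.7%). DES, the muscle intermediate filament desmin, was at 6.91 and 5.83 against 4.61 and 4.48 (0.39 ± 0.0857), a call lost with the other clusters weighted equally. MYF5 was at 0.803 and 0.664 against 0.980 and 0.923 and was not called, but it was called lower with the library as a block (-0.47, edgeR adjusted p = 0.0255) and without doublets (adjusted p = 0.0496). MYOG, which drives differentiation, was at 1.5 and 0.925 against 2.10 and 2.14 (-0.87 ± 0.159). Its highest means were 18.6 in cluster 12 and 6.68 in cluster 3. The MYOG mean of cluster 13, 1.21, was below clusters 3, 7, 10, 12, 14 and 15 and above clusters 1, 2, 4, 5, 6, 8, 9 and 11. Of 52 genes of muscle structure tested, 11 were called lower and only DES higher, beside 11.3% and 5.98% of all genes tested. Equal weights for the other clusters gave 18 lower and 0 higher, and DESeq2 gave 11 and 3. TNNC2, fast troponin C, was at 1.66 and 1.02 against 4.98 and 5.0. PAX7 and PAX3, markers of satellite cells, had 1 UMI each in the cluster. Their sum was 0 and 0.0474 in cluster 13 against 0.0173 and 0.0174 in all other cells, and neither was called. The 2 genes were thus rare in the other cells too, and these counts cannot show a difference.

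Markers of other cell types were compared with their levels in all other cells, beside 5.98% called higher and 11.3% lower among all genes tested. The 7 pericyte genes were at 1.27 and 1.02 in cluster 13, against 0.593 and 0.617 in all other cells and a mean of 4.02 in cluster 7, the 1 cluster with a higher mean. Cluster 9 had a mean of 1.14, between the 2 libraries of cluster 13, and cluster 10 a mean of 0.937. The 7 genes had 116 UMIs in cluster 13, of which NOTCH3, the most abundant, had 79 and CSPG4 34. MCAM, PDGFRB and KCNJ8 had 1 each and RGS5 and ABCC9 had 0. Of the 5 smooth muscle genes (5.08 and 4.29, against 7.74 and 7.69), ACTA2 was the most abundant and was lower by 0.88 on the log2 scale than in all other cells, and TAGLN, with 10 UMIs, was lower by 1.10. The TAGLN call was lost in 5 of the alternative fits, the block among them (adjusted p = 0.0546 in edgeR). The 5 fibro-adipogenic genes summed to 7.56 and 7.54 against 10.3 and 10.1, most of it DCN, and 3 were called lower: DCN, LUM and PPARG, which had 0 UMIs and lost its call in 3 of the alternative fits. PDGFRA, the surface marker of fibro-adipogenic progenitors, had 24 UMIs and was not called, except as lower with the other clusters weighted equally. The 3 fibroblast genes summed to 96.0 and 91.1, most of it COL1A2, and overlapped the 88.98 and 91.4 of all other cells, and S100A4 among them was lower by 1.72. The part of other cell types in the results was not tested. The 6 endothelial genes had 3 UMIs (a mean of 0.0356, against 0.0328), with CDH5, PECAM1, VWF and KDR at 0. The 6 leukocyte genes had 5 UMIs (a mean of 0.04675, against 0.0251), with PTPRC at 0. The 4 erythroid genes had 0 UMIs, but their level in all other cells, 0.00641, was below the 0.0302 that 3 UMIs would give. No member of these lists was called, and such counts do not set cluster 13 apart from the other cells. All 45 UMIs of the 5 glial genes (a mean of 0.462, against 0.317) were S100B, with SOX10 and FOXD3 at 0. The chondro-osteogenic list had 20 UMIs, mostly RUNX2, and the epithelial list 31 (a mean of 0.311, against 0.210), mostly CDH1.

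Cluster 10 was the cluster most like cluster 13. Over 7005 genes at 0.1 UMI per 10000 or more, the correlation of log2 levels between the 2 clusters was 0.985, whereas it ran from 0.826 with cluster 7 to 0.919 with cluster 6. This is a correlation across genes of cells in the same libraries, given as a description. Between replicate 1 of cluster 13 and replicate 2 of cluster 10 it was 0.973, and with the replicates exchanged 0.967. Cluster 10 was first in both, and the next values were 0.910 with cluster 6 and 0.904 with cluster 1. Between the 2 replicates of cluster 13 it was 0.955, where both sums were shallow, so that this value is not ranked against those with cluster 10. Of 8876 genes tested between them, 6 (0.0676%) were called higher and 1 (0.0113%) lower in cluster 13. An unadjusted p under 0.05 was found for 736 genes. With the library as a block, 63 genes were called higher and 66 lower, among which were all 7 of these genes, and DESeq2 called 5 and 3 of the 692 genes it kept. Over the 1533 genes at 1 UMI per 10000 or more in cluster 13, the 95th percentile of the absolute log2 fold change was 0.367 against cluster 10, beside 1.21 against all other cells, 1.56 against cluster 14 and 2.31 against cluster 7.

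Called higher than in cluster 10 were RPS26, IGF2, ELN, ADIRF, RPS15 and RPLP1. RPS26 was at 40.7 and 40.8 in cluster 13 and at 21.8 and 20.6 in cluster 10 (log2 fold change 0.97 ± 0.0577). IGF2 was at 27.2 and 27.8 against 15.6 and 18.7 (0.71 ± 0.0811). ELN was at 1.15 and 1.09 against 0.573 and 0.629. ADIRF, a small regulator of adipogenesis, was at 3.96 and 3.46 against 2.06 and 2.54. TXN, at 2.16 and 2.37 against 3.83 and 3.75 (-0.72 ± 0.0996), was the 1 gene called lower. Levels below those of all other cells were also found in cluster 10. UBB had a mean of 3.12 in cluster 10 and PSMB6 of 0.836. LGALS1 had a mean of 3.30 in cluster 13 and 5.01 in cluster 10 and was not called (-0.56), but it was called lower in 6 of the alternatives, the library block and DESeq2 among them. LMNA, with means of 0.988 and 1.45, was called lower with the block and with no filter. In edgeR, 0 genes of the proteasome, chaperonin, heat shock and respiratory chain lists were called between the 2 clusters, where the background was 0.0789% of genes, and DESeq2 called 0 of the 4, 4, 9 and 31 it kept. An unadjusted p under 0.05 was found for 3 of 32 proteasome, 0 of 8 chaperonin, 2 of 20 heat shock and 16 of 71 respiratory chain genes, beside 8.29% of all genes tested. The library block and the fit with no filter each called 6 genes of the respiratory chain lower, beside 0.744% and 0.398% of all genes tested in these fits.

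**Figure D4:**
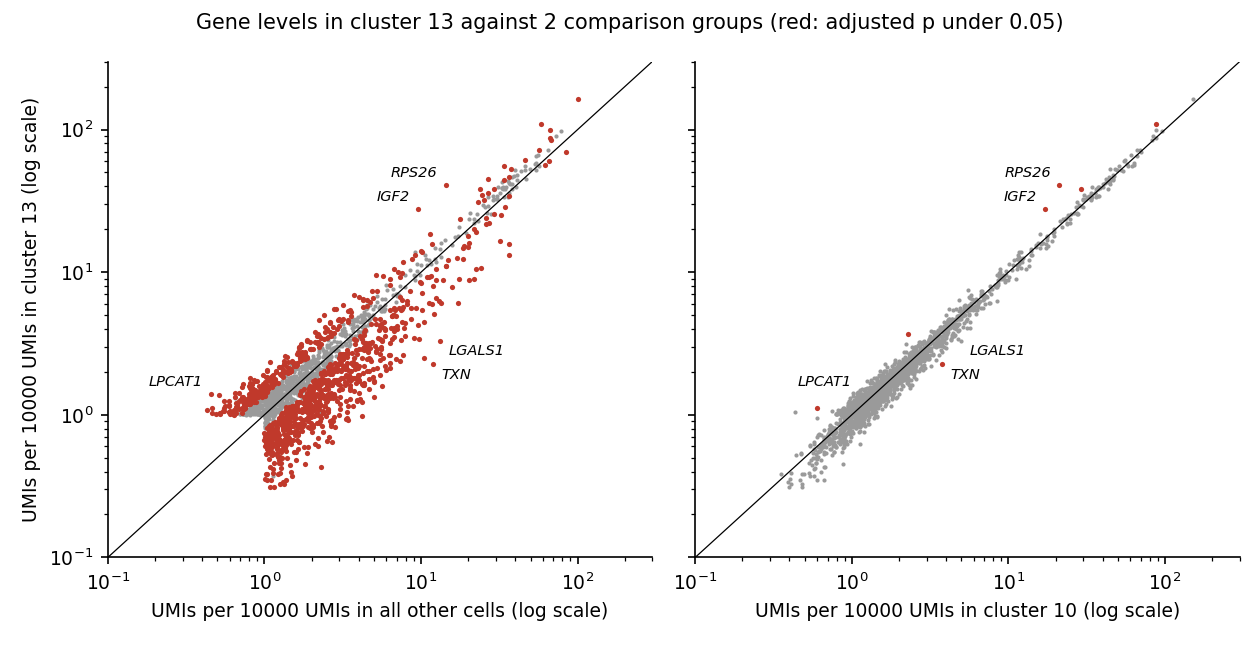
Level of each gene in cluster 13 (vertical, UMIs per 10000 UMIs, log scale) against its level in all other cells (left) and in cluster 10 (right), for genes at 1 UMI per 10000 or more in cluster 13 or in all other cells. Points are means of 2 libraries, red where the adjusted p is under 0.05, and the line is equality. Many genes leave the line on the left, while on the right 7 are red, with RPS26, IGF2 and ELN above the line and TXN below it.

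Depth differed between clusters 13 and 10, and the comparison was repeated where their depths met. Both clusters had cells from 2111 to 3323 UMIs, which were 136 cells of cluster 13 and 168 cells of cluster 10. In these cells RPS26 was at 37.6 and 38.6 in cluster 13 against 29.5 and 31.0 in cluster 10 (0.45 ± 0.0688). The log2 fold change over all cells was 0.97. RPS26 and RPS15 were called in this range. IGF2 was at 30.5 and 24.8 against 26.4 and 16.4. Within each library cluster 13 was above cluster 10, but the lower library of cluster 13 fell below the higher one of cluster 10. IGF2 was not called (0.49 ± 0.168). TXN was at 2.06 and 2.48 against 2.72 and 2.77 (-0.18 ± 0.209), and was not called. ELN was at 1.43 and 1.35 against 0.766 and 1.03, so that both libraries of cluster 13 stayed above both of cluster 10, and it was not called with its wider error (0.74 ± 0.291, beside 0.93 over all cells). ADIRF (0.43 ± 0.21) and RPLP1 (0.23 ± 0.0502) were not called either. LGALS1 (0.0158 ± 0.176) and LMNA (-0.176 ± 0.338), which some alternatives over all cells called lower, were also not called in this range. Of 3432 genes tested in these cells, 30 were called higher and 2 lower. The 30 were 25 ribosomal protein genes and COL1A1, COL1A2, GAPDH, TMSB10 and VIM. INHBA, a subunit of activin, was among those lower. The large-subunit sum was 1692 and 1690 in cluster 13 against 1511 and 1473 in cluster 10. The proteasome sum was 38.4 and 38.4 against 47.5 and 43.3. The part of depth in the differences over all cells was not tested beyond this range, since 466 cells of cluster 13 were below it and 842 cells of cluster 10 above it.

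Clusters 7 and 14, which are shallow as well, differed widely from cluster 13. Against cluster 7, 7357 genes were tested, of which 1616 (22%) were called higher and 1453 (19.7%) lower in cluster 13 (41.7% in either direction), and without TMM the split was 1001 and 2713. All 43 large-subunit and all 33 small-subunit ribosomal genes tested were higher in cluster 13, RPLP1 by 3.20 ± 0.0676 on the log2 scale and RPS12 by 3.07 ± 0.0593. Of 14 collagens tested 13 were lower, and of 27 matrix genes 20 were lower, with COL4A1 at 0.785 and 0.782 in cluster 13 against 6.88 and 9.06 in cluster 7 and VCAN, the proteoglycan versican, at 0.384 and 0.379 against 3.67 and 4.0. The proteasome sum of cluster 7 was 69.5, and 16 of 32 genes were lower and 1 higher in cluster 13. Of 70 respiratory chain genes, 35 were higher and 10 lower in cluster 13 than in cluster 7. Of 71 genes of the mitochondrial ribosome, 30 were higher and 3 lower. Against cluster 14, 5948 genes were tested, of which 1243 (20.9%) were called higher and 1448 (24.3%) lower (45.2% in either direction), and without TMM 1689 and 1180. DESeq2 called 245 higher and 682 lower of the 4712 genes it kept. Here 31 of 32 proteasome genes, all 8 chaperonin genes and 63 of 70 respiratory chain genes were lower in cluster 13. TXN was at 16.1 and 14.8 in cluster 14 and S100A4, a calcium-binding protein of motile cells, at 18.99 and 21.6, against 2.6 and 2.13 in cluster 13. IGF2 was at 5.94 and 5.67 in cluster 14 (2.10 ± 0.0843), and 8 of 11 collagens tested were higher in cluster 13. The proteasome sum in cluster 15, the shallowest, was 113, the highest of all. Clusters 13 and 10 thus had proteasome sums of 41.0 and 43.6, and the other 13 clusters lay between 69.5 and 113.

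Within cluster 13 some genes varied with the depth of the cells. The cells of each library were divided by their UMIs into 3 groups, low, middle and high, of 116 cells each in replicate 1 and of 84 or 85 cells in replicate 2. From low through middle to high depth the collagen sum went from 121 through 146 to 166 in replicate 1 and from 124 through 137 to 161 in replicate 2, and ACTB, beta-actin, from 70.0 through 61.3 to 53.7 and from 72.4 through 63.8 to 54.6. RPS26 went from 44.2 through 42.0 to 38.2 and from 48.0 through 39.8 to 38.2. These 3 had the same order in both libraries. The proteasome sum was 41.6, 41.3 and 40.3 in replicate 1 and 43.0, 44.1 and 38.0 in replicate 2, all below the mean of 69.5 in cluster 7. TXN stayed between 1.84 and 2.63 and had no common order. IGF2 was at 27.5, 22.1 and 30.7 in replicate 1 and at 43.5, 22.6 and 24.6 in replicate 2, so that its order differed between the libraries. The sum of 4 myocyte genes was higher at high than at low depth in both libraries, by 0.78 and 1.67 on the log2 scale. These genes had 252 UMIs in the whole cluster, the middle group included. In replicate 1 the low group had 27 of them (a level of 2.28) and the middle group 41 (2.18), so the rise was not steady.

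**Figure D5:**
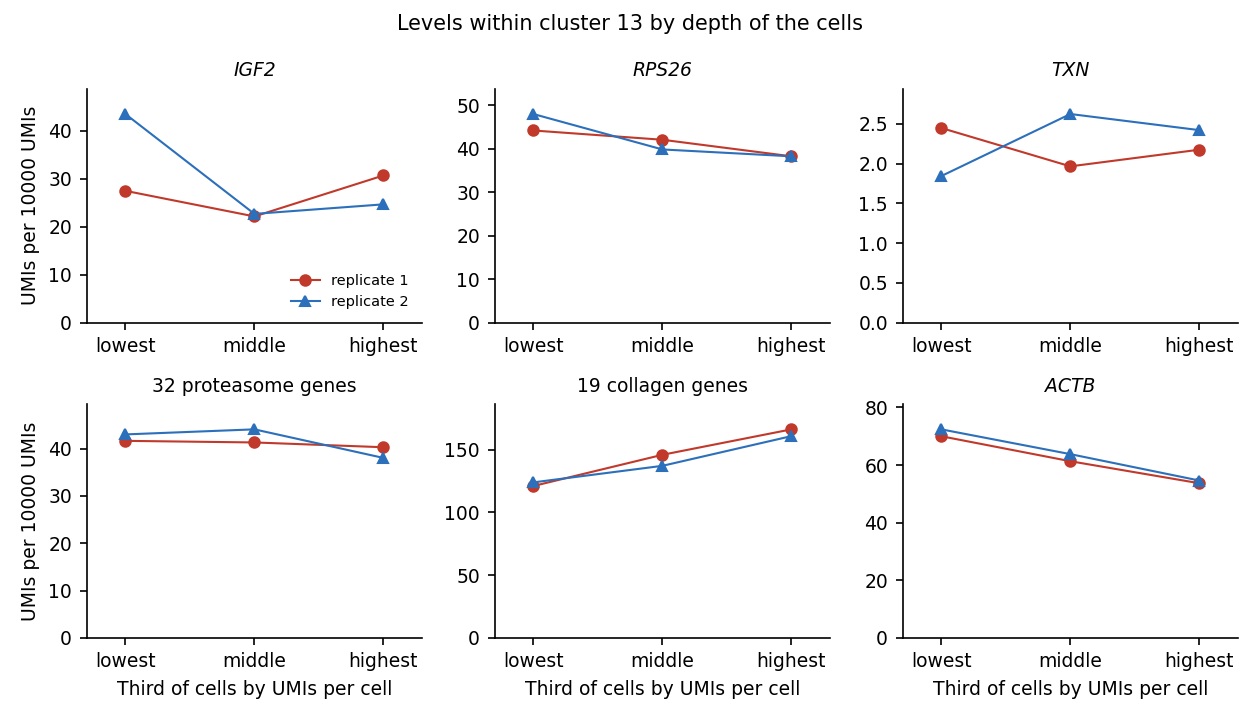
Levels (UMIs per 10000 UMIs) of IGF2, RPS26, TXN, ACTB and the summed proteasome and collagen genes in cells of cluster 13 of low, middle and high depth (3 groups by UMIs per cell); circles are replicate 1 and triangles replicate 2. The collagen sum is higher and ACTB and RPS26 are lower at high depth in both libraries, while IGF2 has a different order in each.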

How the data were processed

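The authors deposited UMI counts of 21867 genes in 19096 cells, made with Cell Ranger 3.0.2 (alignment to ARS-UCD1.2 with a filtered Ensembl annotation, uniquely mapped reads, cell calling, both libraries combined at the same depth of mapped reads). These deposited counts are whole numbers and were used without normalization. The library of a cell was read from the number after its barcode. A second table deposited by the authors holds averages over the cells of each of the 15 clusters for 16816 genes, all scaled to 14889 UMIs, which were multiplied back to whole UMIs (largest distance from a whole number 0.000114) and which fixed the cluster of each cell by elimination in 32 rounds. Their log2 fold changes and adjusted p-values were not used.

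UMIs were summed per library and cluster, 2 sums against 2, and fitted with edgeR 4.0.16 in R 4.3.3 (TMM, filterByExpr, quasi-likelihood test, Benjamini-Hochberg adjustment over all genes tested), which was tested on simulated data. DESeq2 1.42.0, no TMM, no filter, the library as a block, no doublets, cells from 1000 UMIs and other clusters weighted equally were alternatives. Each library gave 1 sum on both sides of a comparison, and in this sense the library pairs the sums. With genes of 20 UMIs or more, their log2 ratios of replicate 1 to replicate 2 had a correlation of 0.32 with all other cells, 0.00564 with cluster 7, 0.23 with cluster 10 and 0.142 with cluster 14. The automatic threshold of Scrublet marked 1 cell, so the 8% of cells with the highest scores per library were called doublets, 755 and 642 cells with ties, a choice made after this was seen. Intervals and floors cover counting error only, with 3 counts as the limit of a count of 0. Members and lists were chosen with earlier results of these data known. Genes named are the given markers and cell type markers, the 15 called genes with the largest and the 15 with the most negative log2 fold change at 1 UMI per 10000 or more, the 5 of each against clusters 7, 10 and 14, the 10 most abundant and up to 4 called members of each list; others were named after their values were seen. Gene names were taken from the feature list of the authors, and a list symbol counts once for each gene that carries it.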

Additional observations from a re-analysis of the deposited data

How the results depend on the processing

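The series had 2 libraries, and a fit on 1 library leaves no residual degrees of freedom, so counts of called genes without a replicate could not be given, and only plain ratios of single genes were computed. Of the genes named above and called against all other cells, TNC alone changed its direction, at -0.0113 when every other cluster had equal weight, and none did so in 1 library alone. JUNB lost its call without TMM, with no filter and with DESeq2, and MCL1 lost it with the other clusters weighted equally, beside the losses given above. ACTB, called lower in the main fit (-0.231), lost its call without TMM and with the other clusters weighted equally. Equal weights also gave 4 of 19 collagens, 5 of 27 matrix genes, 5 of 22 cholesterol genes and 2 of 3 fibroblast genes lower and 2 of 54 G2/M genes higher, beside 10.4% lower and 5.27% higher among all genes in that fit, and DESeq2 gave 5 of 35 phospholipid genes higher, beside 11% of all genes it tested. With DESeq2, 1381 genes were called higher than in all other cells, 898 higher and 658 lower than in cluster 7, and 245 higher and 682 lower than in cluster 14. Without TMM, 1001 genes were called higher and 2713 lower than in cluster 7. The comparison with cluster 10 was the least stable. The genes called higher than in cluster 10 numbered 15 with no filter on low counts, 63 with the replicate block, 10 without doublets and 30 in the shared depth range, a range chosen after the data were seen. Those called lower numbered 4 without TMM, 55 with no filter, 66 with the replicate block, 3 with DESeq2, 3 without doublets, 4 in cells from 1000 UMIs and 2 in the shared depth range. The cause of these changes was not tested. The block moved no other count over all genes by more than 1.5 times, but with it 5 translation factors and 3 genes of p53 response were called higher, beside its effect on the ribosomal and G2/M lists, MYF5, ADRM1 and TAGLN given above. Of the 7 genes called against cluster 10, all 7 were called with the block and 2 in the shared depth range. Depth limits what could be detected, and the median SE of the log2 fold change against all other cells was 0.311 over all genes tested and 0.0929 over those at 1 UMI per 10000 or more in cluster 13.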
